A study of Mus musculus with 8 samples.

Results

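The genes Tet1, Tet2 and Tet3 encode the enzymes that make 5-hydroxymethylcytosine (5hmC), and the 5hmC peaks at these genes themselves are described here. Peaks were taken when they shared at least 1 bp with a window around each gene, given in mm9 coordinates counted from 1. The Tet1 window is chromosome 10, positions 62255000 to 62355000, the Tet2 window is chromosome 3, positions 133115000 to 133220000, and the Tet3 window is chromosome 6, positions 83305000 to 83415000. These windows held 247 of the 684512 peaks deposited for the series. Of these, 65 lay at Tet1, 111 at Tet2 and 71 at Tet3. The windows were not checked against a gene annotation of that assembly, so exons, introns and start sites are not placed in them.

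The series follows 5hmC while mouse embryonic fibroblasts (MEF) are turned into induced pluripotent stem cells (iPSC). The 8 libraries are MEF, intermediates of the OSNK method at D1, D3 and D5, intermediates of the OySyNyK method at D1, D3 and D5, and iPSC, whose title names the OySyNyK factors. D is read as day. As background on the study, OSNK stands for Oct4, Sox2, Nanog and Klf4, and OySyNyK for the same set with a YAP transactivation domain added to each but Klf4. Per the labels' protocols the fibroblasts are OG2-MEFs, which are known to carry a green fluorescent reporter of Oct4. Medium for making iPSC held vitamin C and LIF, and iPSC were kept on a feeder layer of mitomycin C-treated MEF, whose part in the iPSC list was not tested. Each group has 1 library and no replicate, so no comparison below has a test, and peak lists cannot be checked against marker genes of the labelled cells.

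TET enzymes oxidise 5-methylcytosine to 5hmC and further forms, mostly at CpG sites, and vitamin C is known to raise their activity. The oxidised base can be a step towards removal of methylation and is also found as a lasting mark in gene bodies and at enhancers. TET1 is known for its high level in pluripotent cells, TET2 for its part in reprogramming and in blood cells, and TET3 for its action in the zygote and in neurons. Levels of the enzymes are not measured by these peak lists.

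The bases just before each gene's listed start are shown for their CpG sites, where the cytosine can be methylated and then oxidised; the sequence does not say whether it is. The sequences are from RefSeq's GRCm38.p6 table, 250 bases before the start, 5′ to 3′, with every CG in capitals. They lie at chr10:62887325-62887574 for Tet1, chr3:133544391-133544640 for Tet2 and chr6:83441679-83441928 for Tet3, all on the minus strand. That build differs from the one of the peak lists, and whether a peak covers these bases was not tested.
Tet1: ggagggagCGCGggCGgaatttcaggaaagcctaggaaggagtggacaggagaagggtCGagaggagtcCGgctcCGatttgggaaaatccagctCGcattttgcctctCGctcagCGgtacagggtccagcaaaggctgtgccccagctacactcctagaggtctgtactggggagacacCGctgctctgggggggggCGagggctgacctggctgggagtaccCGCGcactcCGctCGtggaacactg
Tet2: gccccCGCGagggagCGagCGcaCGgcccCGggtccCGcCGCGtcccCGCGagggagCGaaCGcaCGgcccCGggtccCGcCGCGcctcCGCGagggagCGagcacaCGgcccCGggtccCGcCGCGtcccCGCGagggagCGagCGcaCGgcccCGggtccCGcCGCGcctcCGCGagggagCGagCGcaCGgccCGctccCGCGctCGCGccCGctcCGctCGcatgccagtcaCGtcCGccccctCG
Tet3: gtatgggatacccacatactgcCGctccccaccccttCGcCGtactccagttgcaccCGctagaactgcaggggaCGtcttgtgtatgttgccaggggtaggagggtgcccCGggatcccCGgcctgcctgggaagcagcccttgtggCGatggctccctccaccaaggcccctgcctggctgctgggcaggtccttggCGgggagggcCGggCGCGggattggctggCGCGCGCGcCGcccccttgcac

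The Tet2 sequence holds 51 CG, and 0.067% of the 32851 promoter stretches of the same length hold as many. The Tet1 sequence holds 15 CG and the Tet3 sequence 17, against a median of 6 over all stretches, and 27.3% and 23.5% of the stretches hold as many. A CG reads the same on both strands. Since all 3 genes are on the minus strand, they are read from the high-numbered towards the low-numbered end of their windows.

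Peak cover, the share of a window's bases that lie in peaks, had a different course at Tet1 than at Tet2 and Tet3. At Tet1 the iPSC list had the highest cover, 9.10%, and the MEF list the lowest, 3.33%. At Tet2 the lists of the 6 intermediates had between 7.82% and 20.9%, against 1.07% in MEF and 2.72% in iPSC. At Tet3 the intermediates had between 9.25% and 18.5%, against 4.76% in MEF and 4.08% in iPSC. Cover at Tet2 and Tet3 was thus higher in every intermediate than in either end state, whereas at Tet1 the intermediates lay between the end states.

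These levels were read against every other window of the same length laid end to end along the same chromosome, 1267 on chromosome 10, 1482 on chromosome 3 and 1326 on chromosome 6. All 6 intermediates exceeded both end states in 12.1% of the 1199 chromosome 3 windows with a peak in any list, and in 12.1% of the 988 on chromosome 6. On chromosome 10, where Tet1 did not have this order, the share was 12.5% of 1070. The gap between the lowest intermediate and the higher end state was 5.10 percentage points at Tet2, the 5th largest of those 1199 windows. It was 4.49 percentage points at Tet3, the 3rd largest of those 988. A large gap of this kind was therefore uncommon on both chromosomes, although the order itself was more common. The gap is in percentage points and was not scaled to the cover of a window. With a score of at least 100 it was not kept at Tet3, where the lowest intermediate had 2.13% and MEF 3.49%. That intermediate was OySyNyK D5, whose list had a median score of 75.8, against 103 in MEF. The cutoff therefore removed a larger share of its list than of the MEF list.

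**Figure D1:**
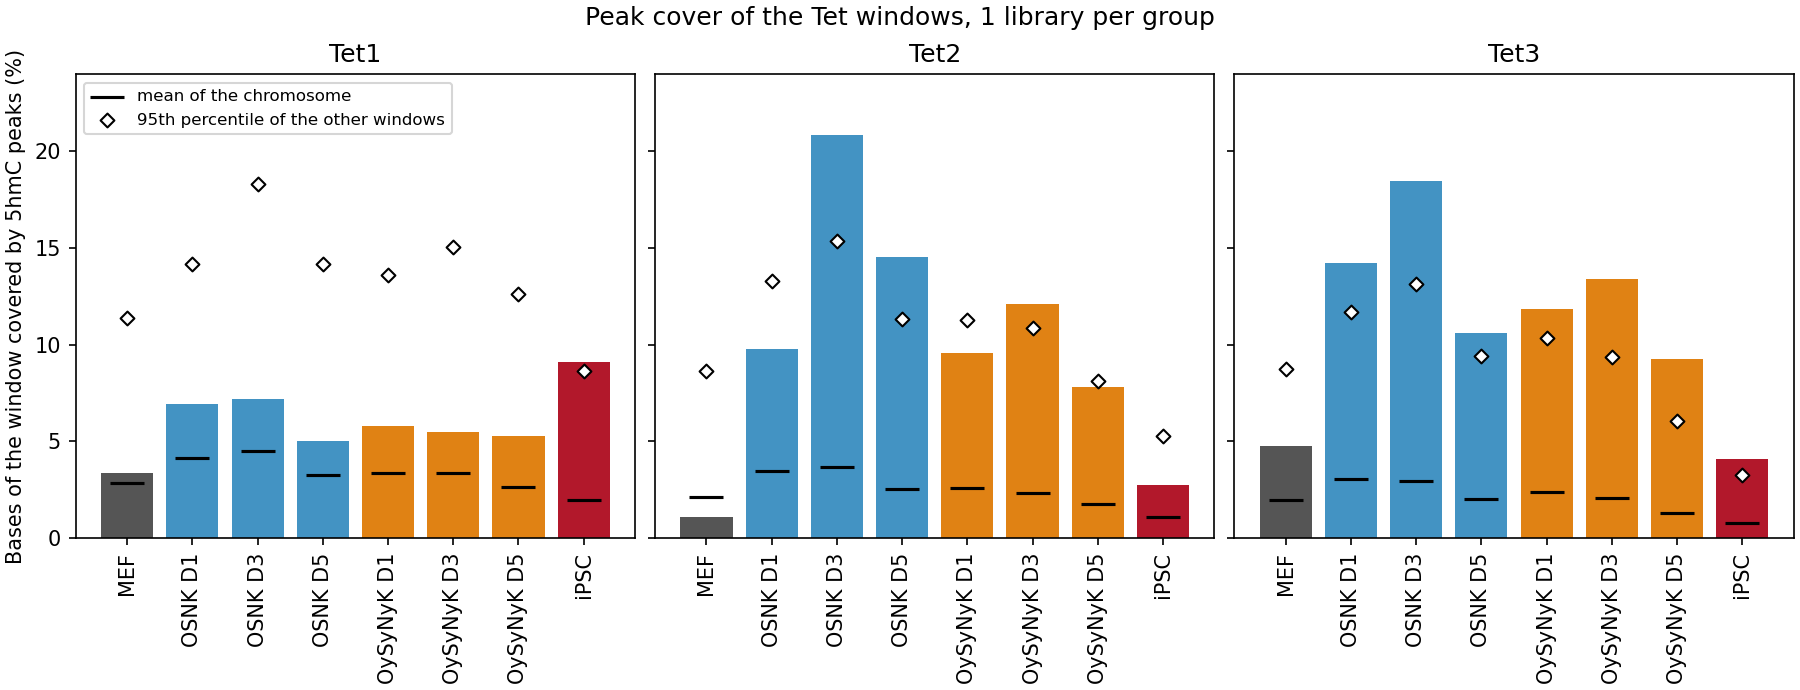
Percent of each Tet window covered by 5hmC peaks (vertical axis) in the 8 libraries (horizontal axis, 1 bar each), with the mean cover of the chromosome (line) and the 95th percentile of the other windows (diamond). The intermediates stand above MEF and iPSC at Tet2 and Tet3, and iPSC stands highest at Tet1.

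List length and peak width differ between libraries and bear on cover. The lists held between 54938 peaks in iPSC and 116302 in OSNK D1, and the median peak was 641 bp wide in iPSC, the narrowest, and 911 bp wide in OSNK D3, the widest. The authors' score of a peak, as MACS writes it, grows with the strength of the call and is -10 log10 of a p-value. Median score was 71.0 in iPSC and between 75.8 and 105 in the other lists. It was 105, 91.4 and 81.3 over the days of OSNK, and 95.8, 84.2 and 75.8 over those of OySyNyK. Scores of different lists are therefore not on the same scale, and the scores below are given as deposited. Depth is unknown, so a stretch without a peak need not lack 5hmC. With the 54938 best-scoring peaks of each list, all 6 intermediates still exceeded both end states at Tet2 and Tet3, and iPSC still exceeded all 6 at Tet1.

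Tet1, the member best known from pluripotent cells, had 4 peaks in MEF and 12 in iPSC. Each OSNK list had 8, and the OySyNyK lists had 8, 8 and 9 in the order of the days. Cover was 6.93%, 7.20% and 4.99% over the days of OSNK. With OySyNyK it was 5.78%, 5.46% and 5.29%. The intermediates stayed within a narrow range of each other, all above MEF and below iPSC. Of the 1070 chromosome 10 windows with a peak, 19.9% had all 6 intermediates above MEF, 9.81% had all 6 below iPSC, and 9.44% had iPSC above the 7 other lists.

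The Tet1 window held 0.103% of the chromosome 10 peaks in MEF (exact 95% interval 0.0282 to 0.264) and 0.360% in iPSC (0.186 to 0.628). These intervals, like all others here, cover counting error only and not the variation between cultures. Cover in iPSC was higher than in MEF by 5.76 percentage points, and 96.8% of the other chromosome 10 windows with a peak had a lower difference. An iPSC cover at least 2 times that of MEF was found in 18.0% of the 944 chromosome 10 windows with a peak in either. The window after Tet1 had 8.80% cover in iPSC and 0% in MEF, while the window before it had 0.451% and 1.31%. The last iPSC peak in the Tet1 window ended at position 62309310, so the iPSC peaks of the next window form a separate stretch.

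With a score of at least 100, iPSC cover at Tet1 was 4.57% and the intermediates lay between 2.79% and 6.93%, so that 3 of the 6 were above iPSC. The first place of iPSC at Tet1 was thus not kept at this fixed cutoff, which does not cut the lists alike. An iPSC peak scoring 103.99, at Tet2, stood above 78.5% of its list. An OSNK D1 peak scoring 100.55, at Tet1, stood above 47.9%. With equal numbers of best-scoring peaks in each list, iPSC had 9.10% at Tet1 and the highest intermediate 7.20%. The order at the cutoff cannot tell weak Tet1 peaks of iPSC from lower scores across the whole iPSC list.

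**Figure D2:**
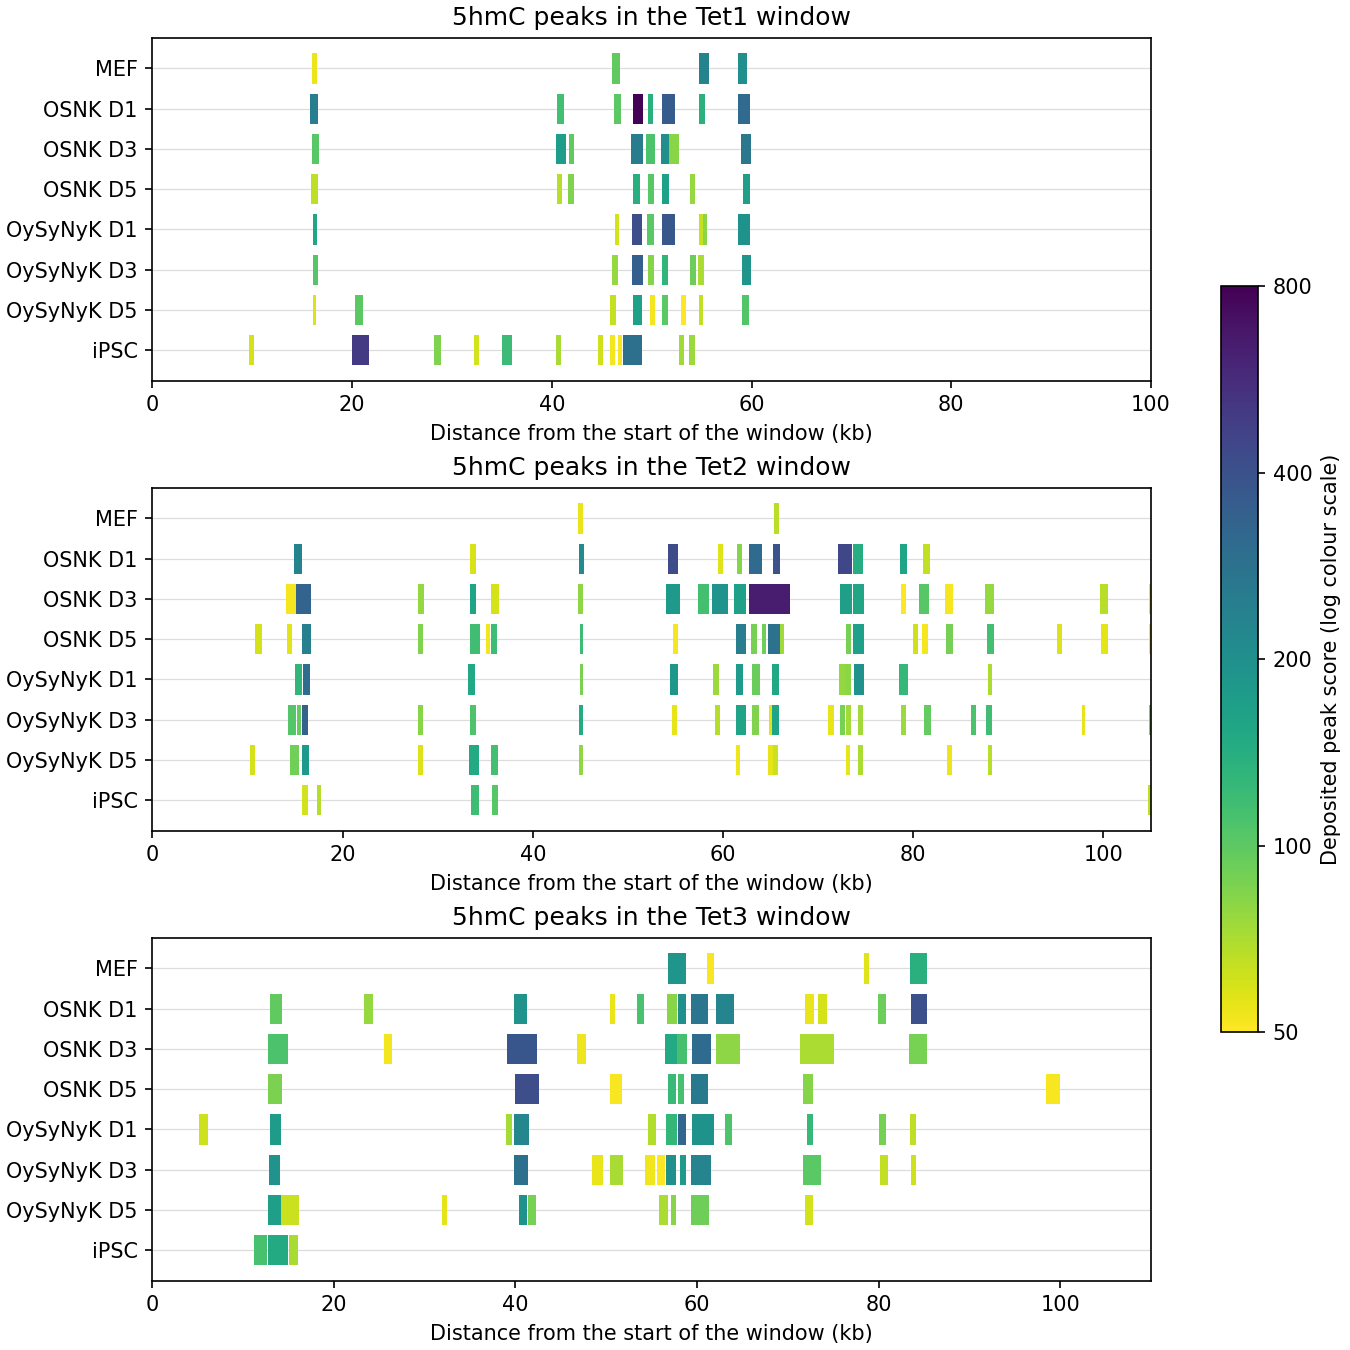
Peaks of each library (rows) along the 3 Tet windows (horizontal axis, distance from the window's start in kb), coloured by deposited score. No list has a Tet1 peak past about 60 kb, and the intermediates' peaks at Tet2 and Tet3 fill stretches with few or no peaks in MEF and iPSC.

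Peaks of all lists that shared at least 1 bp were merged into regions, 16 at Tet1, 27 at Tet2 and 20 at Tet3. Merging can chain peaks, so peaks of 1 region need not share the same bases. At Tet1 the regions ran from position 62264690 to 62314923, which leaves 40.1 kb at the high-numbered end of the window with no peak in any list. Of the 16 Tet1 regions, 10 had a peak in iPSC and none in MEF, which is 62.5% (exact 95% interval 35.4 to 84.8). On chromosome 10 as a whole, 19.1% of 12911 regions did so. Only 2 Tet1 regions, or 12.5%, were found in neither end state, against 52.4% on the chromosome.

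The highest-scoring Tet1 peak of iPSC covered positions 62275039 to 62276694. Its score was 505.56, above 99.8% of the peaks of the iPSC list. The only other list with a peak in this region was OySyNyK D5, with a score of 100.71 over positions 62275264 to 62276067. MEF, the OSNK lists and the earlier OySyNyK lists had none.

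A further 5 Tet1 regions were found in iPSC alone, which is 31.2% of the Tet1 regions against 11.0% on chromosome 10. Their iPSC scores lay between 60.0 and 120.73. They began at positions 62264690, 62283213, 62287231, 62289999 and 62299602. All of them lay on the low-numbered side of the window's centre. The region from 62295372 to 62296413 was found in iPSC, with a score of 71.7, and in each OSNK list, with 114.36, 172.08 and 67.2 over the days, and in no OySyNyK list. The region from 62308742 to 62309447 had scores of 75.6 in iPSC, 77.8 at OSNK D5 and 93.4 at OySyNyK D3.

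The region from 62302092 to 62304173 was absent in MEF and present in the 7 other lists. Scores were 791.06, 253.59 and 138.56 over the days of OSNK. With OySyNyK they were 413.98, 350.73 and 163.23, and iPSC had 291.82. The score was highest at D1 with both methods and above at least 80.6% of the list's peaks in every intermediate. Ranked within its own list, the OySyNyK peak stood higher at D3, above 97.4%, than at D1, above 96.2%. The iPSC peak stood above 98.7% of its list, and the OSNK D1 peak above 98.9%. This region held the strongest Tet1 peak at OSNK D1 and at each day of OySyNyK.

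The region from 62305930 to 62308387 had a like distribution, with scores of 360.4, 206.13 and 167.75 over the days of OSNK. With OySyNyK its scores were 378.18, 130.46 and 101.17. The iPSC peak there, with a score of 73.95, lay at 62307690 to 62308208, past the end of the OSNK D1 peak at 62307309. The bases marked in iPSC were therefore not those marked at OSNK D1.

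Between these, the region from 62304418 to 62305343 was found in all 6 intermediates and in neither end state, with scores between 52.3 and 137.97. The region from 62300859 to 62301984 was the only Tet1 region in both end states, with scores of 97.96 in MEF and 52.8 in iPSC. It was absent at D3 and D5 of OSNK.

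MEF peaks at Tet1 differed in how long they stayed listed. The region from 62313597 to 62314923 was present in MEF and all 6 intermediates and absent in iPSC, with scores of 202.91 in MEF, 309.34, 266.85 and 169.24 with OSNK, and 197.17, 187.93 and 106.13 with OySyNyK. It held the strongest Tet1 peak at D3 and D5 of OSNK. The region from 62270813 to 62271696 had the same pattern of presence, with 53.94 in MEF, 247.75 at OSNK D1 and 58.2 at OySyNyK D5. The region from 62309685 to 62310787 held the strongest MEF peak, with a score of 232.09. It was found at D1 of OSNK with 136.49 and in each OySyNyK list, with 81.3, 71.3 and 65.1, but in neither later OSNK list nor in iPSC. Of the MEF-covered bases, 28.3% were covered at OSNK D5, 49.0% at OySyNyK D5 and 16.0% in iPSC.

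**Figure D3:**
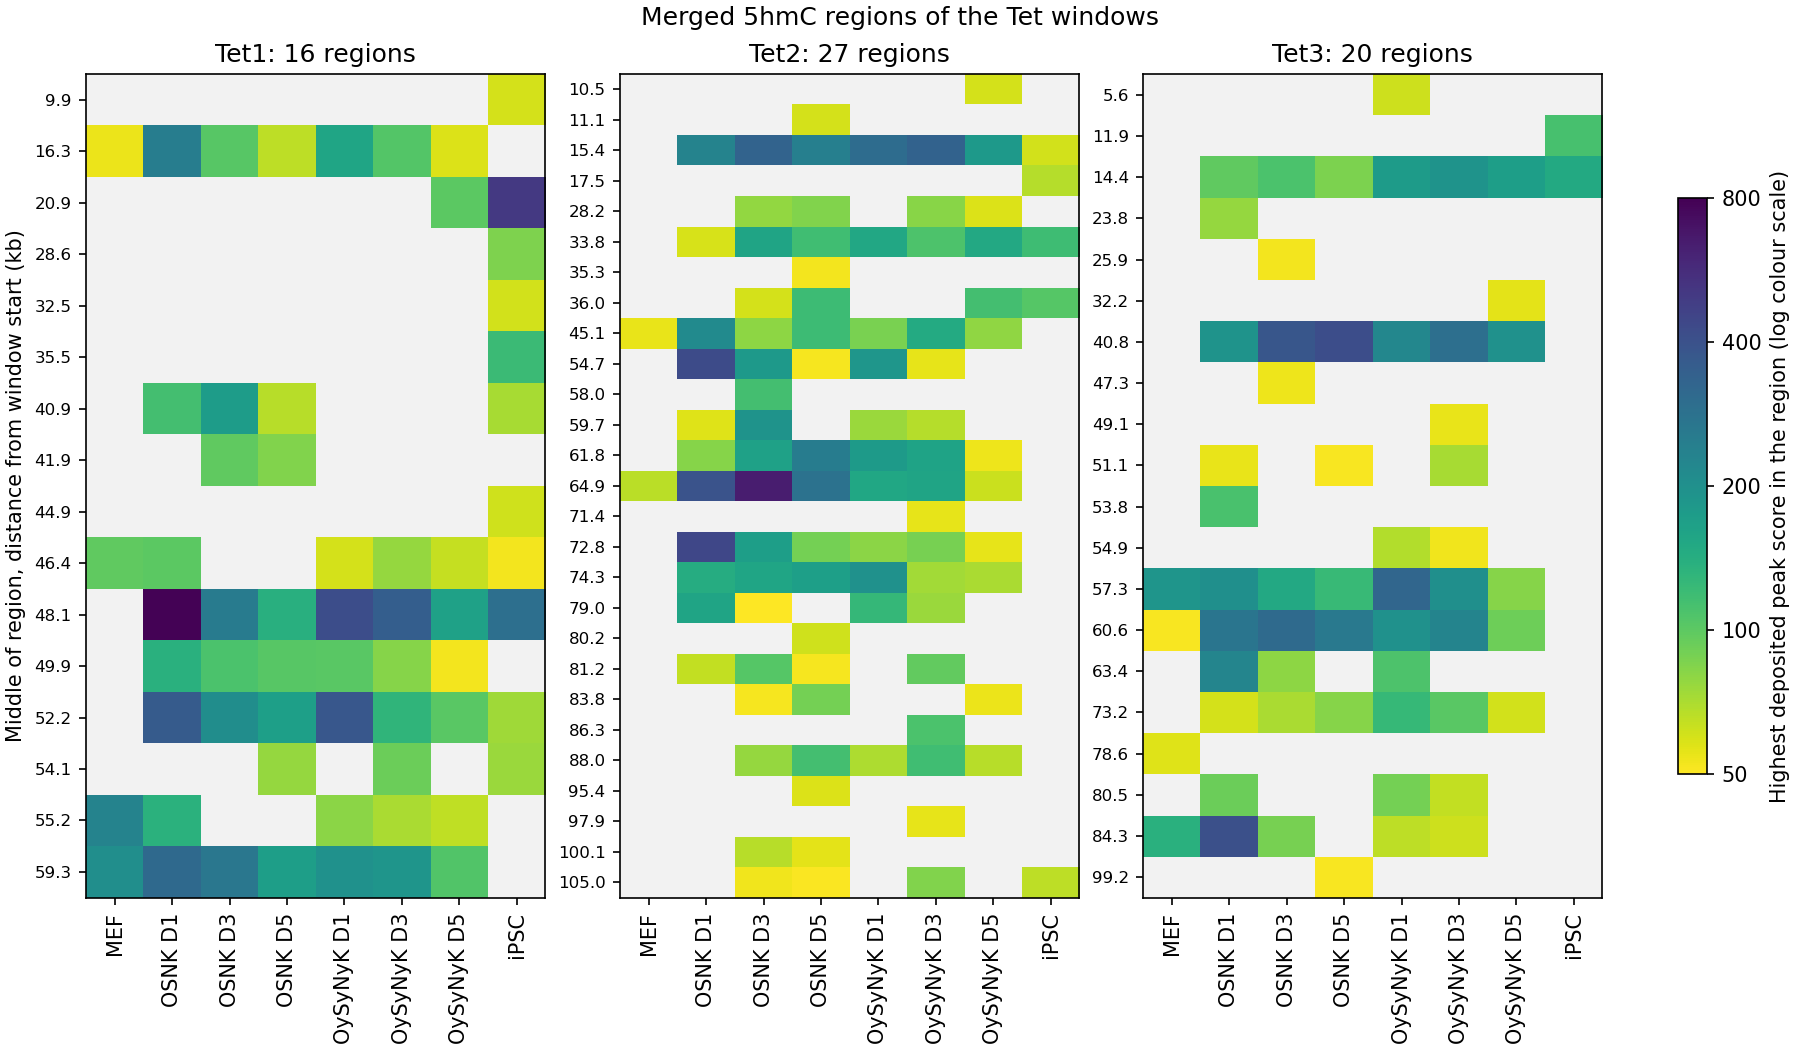
Highest deposited score in each merged region (rows, labelled by distance from the window's start in kb) for each library (columns), grey where the list has no peak. At Tet1 the iPSC column holds 5 regions found in no other list, whereas most rows at Tet2 and Tet3 are filled in at least 1 intermediate and empty in MEF and iPSC.

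Tet2, whose product lacks the CXXC domain that TET1 and TET3 carry, had 2 peaks in MEF and 5 in iPSC. The OSNK lists had 12, 19 and 23 peaks there, in the order of the days, and the OySyNyK lists had 14, 22 and 14. Cover was 9.75%, 20.9% and 14.6% with OSNK. It was 9.58%, 12.1% and 7.82% with OySyNyK. Cover was highest at D3 with both methods, and OSNK D3 was above the 7 other lists, as in 29.5% of the chromosome 3 windows. With every peak set to 500 bp, OSNK cover was 5.71%, 8.85% and 10.8% over the days, so that D5 was highest. OySyNyK cover was still highest at D3 in that setting, 10.2%, and was then above OSNK D3. Of the 1199 chromosome 3 windows, 2.25% had all 6 intermediates at no less than 2 times both end states, as Tet2 had. From D1 to D5, cover was higher with OSNK and lower with OySyNyK at Tet2, an order found in 9.92% of these windows.

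The step from MEF to D1 was large at Tet2. Cover at OSNK D1 exceeded MEF by 8.68 percentage points, and 98.4% of the other chromosome 3 windows with a peak had a lower difference. At OySyNyK D1 the difference was 8.51 points, above 99.4% of them. Tet2 held 0.0537% of the chromosome 3 peaks in MEF (exact 95% interval 0.00651 to 0.194). The share was 0.168% at OSNK D1 (0.0869 to 0.294) and 0.247% at OySyNyK D1 (0.135 to 0.415). Both D1 intervals overlap that of MEF. The highest share was 0.442%, at OySyNyK D3 (0.277 to 0.669). In MEF the Tet2 window had 0.506 times the mean cover of the chromosome, and in the intermediates between 2.83 and 5.79 times. The windows next to Tet2 had at most 2.83% cover in any list, so the higher cover of the intermediates did not continue on either side. Cover of iPSC was at least 2 times that of MEF at Tet2, as in 14.1% of the chromosome 3 windows with a peak in either.

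Of the 27 Tet2 regions, 20 were in neither end state, which is 74.1% (exact 95% interval 53.7 to 88.9). The share on chromosome 3 was 56.8% of 12875 regions, which lies inside this interval. A peak in iPSC and not in MEF was found in 5 regions, 18.5% against 15.4% on the chromosome. The reverse was found in 2 regions, 7.41% (exact 95% interval 0.910 to 24.3) against 23.4%, which lies inside this interval. None was in both, against 4.38% on the chromosome, where 0 of 27 has an exact 95% upper bound of 12.8%. No base of the window was in peaks of both end states.

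The region from 133177775 to 133182030, 4256 bp long, was the only one over 4 kb at the 3 genes. At OSNK D3 a single peak filled it, with a score of 640.85, above 99.3% of that list. The highest scores there were 392.43 at OSNK D1 and 280.85 at OSNK D5. With OySyNyK they were 152.72, 158.3 and 62.5 over the days. MEF had a peak of 595 bp inside it with a score of 66.4, its strongest at Tet2, and iPSC had none. Scores were higher with OSNK than with OySyNyK on each day, and the OSNK D5 list cut the region into 4 peaks.

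The region from 133129078 to 133131655 was absent in MEF and present in the 7 other lists. It held the strongest Tet2 peak on each day of OySyNyK, with scores of 300.75, 335.93 and 179.26. With OSNK the scores were 231.71, 332.54 and 240.9, and iPSC had 60.5. The methods were close here, and iPSC was far below both.

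The region from 133148199 to 133149468 had the same pattern of presence and held the strongest iPSC peak, with a score of 118.32. Its scores were 59.2, 158.88 and 117.27 over the days of OSNK and 151.21, 109.01 and 150.54 over those of OySyNyK. Close to it, the region from 133150573 to 133151453 was in iPSC with 103.99, at OySyNyK D5 with 114.92, and at D3 and D5 of OSNK with 59.5 and 118.97. It was in neither D1 list. The other iPSC regions at Tet2 had scores of 67.8, from 133132302, in no other list, and 65.8, from 133219664, at the edge of the window.

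The region from 133159753 to 133160369 was found in MEF with a score of 54.9 and in all 6 intermediates, where OSNK D1 had the highest, 212.46.

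A further 3 Tet2 regions were in all 6 intermediates and in neither end state. They began at 133176175, 133187061 and 133188635. Their share of the Tet2 regions was 11.1% (exact interval 2.35 to 29.2), against 2.56% on chromosome 3, which lies inside this interval. The region from 133187061 to 133188611 had the strongest OSNK D1 peak, with a score of 441.36. Its scores were 168.9 and 88.9 at D3 and D5 of OSNK, and 80.8, 88.4 and 55.2 over the days of OySyNyK. The region from 133176175 to 133177439 had its highest OSNK score at D5, 250.91, and its highest OySyNyK score at D1, 177.12. Ranked within its own list, the OySyNyK peak stood higher at D3, above 82.7%, than at D1, above 78.4%. These regions thus had their highest OSNK scores on different days.

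**Figure D4:**
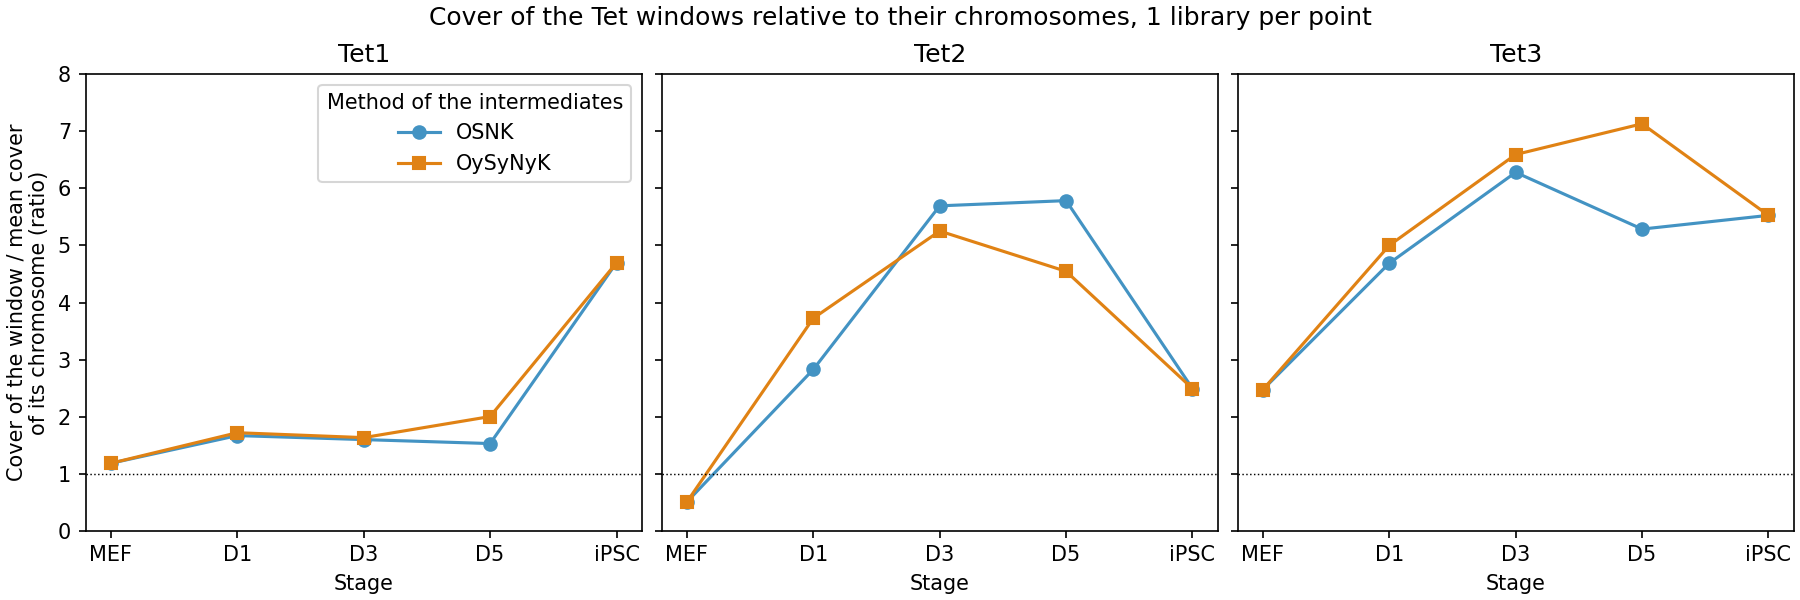
Cover of each Tet window divided by the mean cover of its chromosome in the same list (vertical axis, ratio) at each stage (horizontal axis), with 1 library per point and the MEF and iPSC values shared by both lines. The ratio is above 1 everywhere except at Tet2 in MEF, where it is 0.506.

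Tet3 had 4 peaks in MEF and 3 in iPSC. The OSNK lists had 13, 10 and 8, in the order of the days, and the OySyNyK lists had 12, 12 and 9. Cover was 14.2%, 18.5% and 10.6% with OSNK. With OySyNyK it was 11.8%, 13.4% and 9.25%. The OSNK list at D3 had fewer peaks than at D1 but covered more bases, with the longest peak at 3816 bp. Of the 988 chromosome 6 windows, 23.5% had OSNK D3 above the 7 other lists, as Tet3 had. This order was not kept with every peak set to 500 bp. OSNK cover at Tet3 was then 5.91%, 4.55% and 3.64% over the days, so that D1 was highest.

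Cover at OSNK D1 exceeded MEF by 9.46 percentage points at Tet3, a difference above that of 98.5% of the other chromosome 6 windows with a peak. For OySyNyK D1 the difference was 7.06 points, above 98.9% of them. In 7 of the 8 lists, all but MEF, Tet3 was among the top 5% of chromosome 6 windows. In the same sense Tet2 was so in 3 lists and Tet1 in 1, the iPSC list. These counts used all windows, also those without a peak in any list. Among windows with a peak, Tet3 at OSNK D5 stood above 94.3% and Tet1 in iPSC above 94.7%. Both then left the top 5%, and the other cases stayed in it. With a score of at least 100, 5 of the 6 intermediates exceeded both end states at Tet3, with 2.13% in the lowest against 3.49% in MEF.

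Absolute and relative cover at Tet3 ordered the end states differently. MEF had 4.76% and iPSC 4.08%, but these were 2.47 and 5.53 times the chromosome 6 mean of the same list. The chromosome mean itself was 1.92% in MEF and 0.738% in iPSC. Against the mean of all autosomes the values were 1.83 times in MEF and 2.39 times in iPSC, so that the gap between the end states was smaller on that scale. With the 54938 best-scoring peaks of each list, iPSC cover at Tet3 exceeded MEF by 0.592 percentage points. The order of MEF and iPSC at Tet3 thus depended on the measure, and an iPSC cover at least 2 times that of MEF, not found at Tet3, was found in 11.8% of 864 chromosome 6 windows.

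MEF and iPSC peaks at Tet3 lay at different places. No base and none of the 20 regions was in both lists (exact 95% upper bound 16.8%), and on chromosome 6 289 of 9636 regions were. A peak in MEF and not in iPSC was found in 4 regions, 20.0% against 26.1% on the chromosome, and the reverse in 2, 10.0% against 11.9%. All 3 iPSC peaks lay between positions 83316214 and 83321167. The 4 MEF peaks lay between 83361796 and 83390285. The iPSC peaks thus stood near the low-numbered end of the window, and the MEF peaks in its other part.

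The region from 83317709 to 83321167 was absent in MEF and present in the 7 other lists. Scores with OSNK were 98.6, 110.01 and 86.1 over the days. With OySyNyK they were 175.16, 191.84 and 168.41, and iPSC had 148.15. The OySyNyK scores were above the OSNK scores on each day, and the iPSC peak from 83317757 to 83319910 was the strongest of iPSC at Tet3. The region next to it, from 83316214 to 83317581, was in iPSC alone, with a score of 111.85.

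The region from 83344008 to 83347551 was in all 6 intermediates and in neither end state. Its scores were 191.75, 379.81 and 414.56 over the days of OSNK. With OySyNyK they were 221.58, 290.79 and 196.41. It held the strongest Tet3 peak at D3 and D5 of both methods, and at OSNK D5 it stood above 98.9% of the list. The region from 83376294 to 83380109 had the same pattern with lower scores, between 60.1 and 125.49. These 2 regions are 10.0% of the Tet3 regions (exact interval 1.23 to 31.7), against 2.60% on chromosome 6. The value of the chromosome lies inside this interval.

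Among the MEF regions of Tet3, that from 83360589 to 83363921 held the strongest MEF peak, with a score of 188.49. It was listed in all 6 intermediates, with scores of 200.54, 150.53 and 123.15 for OSNK and 319.6, 201.29 and 82.8 for OySyNyK. The neighbouring region from 83364308 to 83366886 had a score of 51.6 in MEF, 273.16, 307.8 and 262.09 with OSNK, and 197.51, 228.52 and 92.3 with OySyNyK. The region from 83388307 to 83390302 had 136.96 in MEF and 404.59 at OSNK D1, the strongest peak of that list at Tet3. Its score was 88.7 at OSNK D3, 66.0 and 62.0 at D1 and D3 of OySyNyK, and it was absent at D5 of both methods. The region from 83383351 was in MEF alone, with a score of 57.0. MEF bases still covered at D5 were 32.6% with OSNK and 15.1% with OySyNyK.

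**Figure D5:**
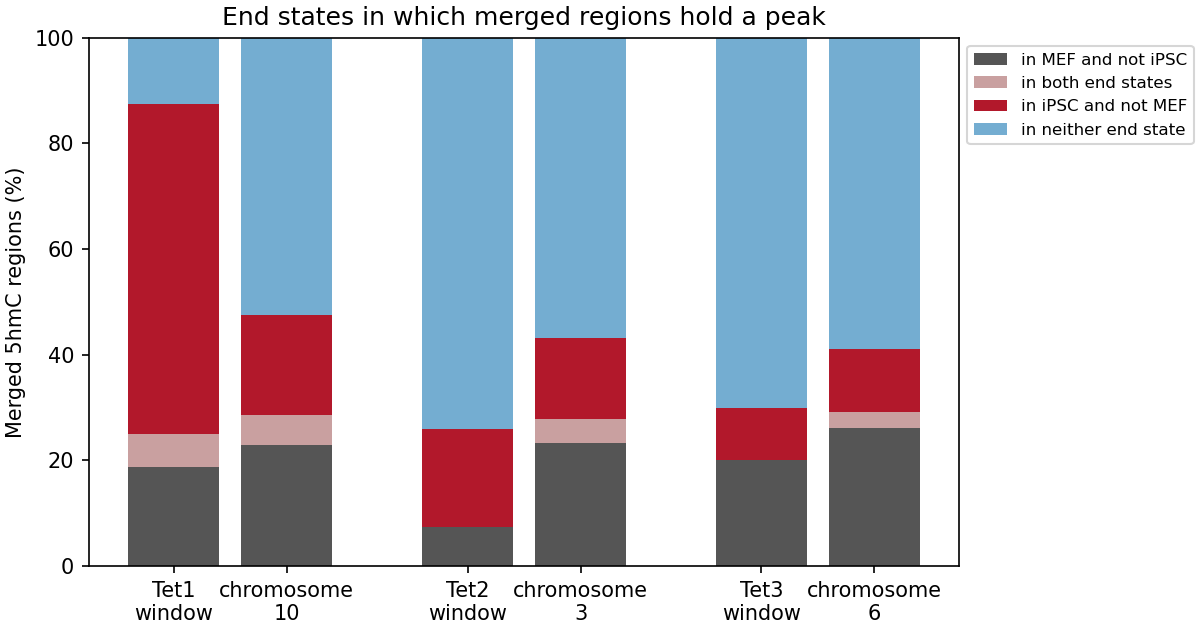
Share of merged regions (vertical axis, percent) by the end states in which they have a peak, for each Tet window beside its whole chromosome. At Tet1 62.5% were in iPSC and not MEF, and at Tet2 and Tet3 74.1% and 70.0% were in neither.

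Of the 20 Tet3 regions, 14 were in neither end state, which is 70.0% (exact 95% interval 45.7 to 88.1), against 59.0% of 9636 regions on chromosome 6. That interval includes the value of the chromosome, as the interval at Tet2 did. Those in all 6 intermediates were 5 of 16 at Tet1, 7 of 27 at Tet2 and 5 of 20 at Tet3. The shares, 31.2%, 25.9% and 25.0%, stood against 10.6%, 9.86% and 8.64% on the 3 chromosomes. Regions in at least 7 lists made up 25.0%, 14.8% and 15.0%, against 8.59%, 8.03% and 6.38%. The exact 95% intervals of these shares, 7.27 to 52.4, 4.19 to 33.7 and 3.21 to 37.9, each include the value of the chromosome. Regions in 1 list only made up 31.2%, 37.0% and 50.0%, against 38.7%, 38.9% and 40.2%.

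The methods were compared on the same day. At Tet2 the cover with OySyNyK minus that with OSNK was -0.165 percentage points at D1, -8.77 at D3 and -6.73 at D5. At Tet3 it was -2.40, -5.08 and -1.34 points. OySyNyK was below OSNK on all 3 days in 42.4% of the chromosome 3 windows and in 39.0% of those on chromosome 6. At Tet1 the differences of OySyNyK from OSNK were -1.15, -1.74 and 0.302 points, and 39.5% of the chromosome 10 windows had OySyNyK below OSNK on all 3 days. The direction at Tet2 and Tet3 was thus a common one, and the OSNK lists covered more sequence in all on each day.

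The mean difference over the 3 days was -5.22 points at Tet2, and 4.92% of the other chromosome 3 windows had a lower one. It was -2.94 at Tet3 and -0.864 at Tet1. With every peak set to 500 bp, these means were -0.588 at Tet2, 0.303 at Tet3 and 0.134 at Tet1. The median peak was 911 bp wide at OSNK D3 and 680 bp at OySyNyK D3, but 650 and 703 bp at D5. With D1 and D5 only, the mean was -3.45 points at Tet2 and -1.87 at Tet3. At equal width the days differed in sign at Tet2, with OySyNyK minus OSNK at 0.952 points at D1, 1.38 at D3 and -4.10 at D5. At Tet3 the values were -0.455, 0.909 and 0.455 points, and at Tet1 -0.0990, 0 and 0.500. The lower cover with OySyNyK at Tet2 was thus kept at D5 alone when all peaks had the same width. Treating each kb of a window as 1 independent trial gave 95% intervals of -14.4 to 3.89 at Tet2, -12.0 to 6.12 at Tet3 and -8.11 to 6.30 at Tet1, all of which include 0. These intervals take each 3-day mean as 1 proportion and the methods as unpaired. Both methods were in fact read on the same bases, so the intervals do not decide whether the methods differ.

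Overlap between the methods was taken as the bases in peaks of both divided by the bases in peaks of at least 1 of them. At D1 it was 74.7% for Tet1, 60.6% for Tet2 and 48.1% for Tet3. On the whole chromosomes the overlap was 47.4%, 46.4% and 46.3%. At D3 it was 40.0% at Tet1, 46.2% at Tet2 and 35.3% at Tet3, against 39.0%, 35.3% and 34.7%, so that Tet1 and Tet3 were close to their chromosomes on that day. At D5 it was 35.5% at Tet1, 40.6% at Tet2 and 44.1% at Tet3, against 33.9%, 31.2% and 28.6% on the chromosomes. At Tet2, 82.6% of the OySyNyK bases at D5 were also covered with OSNK, while 44.4% of the OSNK bases were covered with OySyNyK.

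The share of an intermediate's bases that lay in iPSC peaks was largest at D5 of OySyNyK at each gene. It was 45.5% at Tet1, 25.2% at Tet2 and 30.3% at Tet3, against 28.5%, 22.6% and 16.7% on their chromosomes. At OSNK D5 it was 32.5%, 14.7% and 13.0%, against 17.1%, 13.1% and 8.98%. Read the other way, OySyNyK D5 covered 26.5% of the iPSC bases at Tet1, 72.3% at Tet2 and 68.6% at Tet3, against 38.8%, 35.6% and 29.3% on the chromosomes. OSNK D5 covered 17.8%, 78.4% and 33.7% of them, against 28.8%, 30.1% and 24.4%. These shares were thus below the chromosome's at Tet1 and above it at Tet2 and Tet3, where the iPSC list has only 5 and 3 peaks.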

How the data were processed

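Per the labels' protocols, 5hmC in sheared DNA was tagged with a glucose carrying an azide, linked to biotin, pulled down and sequenced. The authors deposited 1 peak list per library. The submitters' processing notes name Bowtie and MACS; no version, setting or control is given there. The deposited score per peak was at least 50 in every list. The named builds, hg18 and NCBI36, are human; the lists hold mouse chromosomes, 10 of 20 with peaks past the last GRCm38 gene, and mm9 is taken as given with the windows. Read depth is not given in the sources used here.

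Cover, merged regions and windows of equal length, laid end to end from the gene's window, were computed with scipy 1.17.1, pandas 2.3.3 and numpy 2.4.6 under Python 3.11.15. Peak numbers and cover were checked against bedtools 2.31.1, equal in 24 of 24 cases, and tested on simulated data. All windows of the chromosome took the place of random ones. Intervals are exact binomial (95%); those of cover differences (Newcombe) count each kb as 1 trial. Figures used matplotlib 3.10.9. Regions were named if in at least 7 lists, in iPSC and not MEF, over 4 kb, or holding a list's strongest peak; others were chosen after their values were seen. Genes, rules and lists were chosen with earlier results of these data known. Other genes of the pathway were not analysed here, as no annotation of the build was used. Alternatives were only peaks scored 100 or more, the 54938 best-scoring peaks of each list, 500-bp peaks, peaks within 1 kb merged, windows 10 kb narrower or wider at each end, windows moved along by a fraction of their length, or only those with a peak, and the autosomes as reference. Equal numbers of 500-bp peaks, and D1 and D5 only, were added after seeing the data.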

Additional observations from a re-analysis of the deposited data

Results flagged for a closer look

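At Tet2, cover from D1 to D5 differed by 4.81 percentage points with OSNK and by -1.76 with OySyNyK, opposite in direction, as in 9.92% of the 1199 chromosome 3 windows. The difference was not tested, since each group has 1 library. With a score of at least 100 the OSNK value was -0.416, and with 500-bp peaks the OySyNyK value was 0.

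At Tet1, cover from D1 to D3 differed by 0.275 percentage points with OSNK and by -0.315 with OySyNyK. This difference was not tested, and both values are small beside the cover of 5.46% to 7.20% in these lists.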

How the results depend on the processing

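The 12 cover differences (iPSC against MEF, D5 against D1 with each method, and the methods against each other, at each gene) were recomputed under 7 to 8 alternatives. All 87 values lay within the 95% interval of the value in the text, but these intervals are wide and include 0. The sign was kept in 73, opposite in 10 and 0 in 4. It was kept throughout for iPSC minus MEF at Tet1 (2.61 to 7.46 percentage points) and Tet2 (1.25 to 2.59) and for the methods at Tet2 (-5.74 to -0.398). With equal numbers of peaks, iPSC minus MEF at Tet3 was 0.592 and D5 minus D1 with OySyNyK at Tet3 was 0.598. With 500-bp peaks, D5 minus D1 with OySyNyK at Tet1 was 0.599, and with equal numbers of such peaks it was 0.500 at Tet1 and 0.455 at Tet3. D5 minus D1 with OSNK ranged from -0.416 to 7.43 at Tet2. The cover values of single lists were less stable than the differences. Of 168 recomputed, 29 lay outside the 95% interval of the value in the text. With 500-bp peaks, cover at Tet3 went from 18.5% to 4.55% at OSNK D3 and from 14.2% to 5.91% at OSNK D1. Relative cover moved by over 1.5 times in 4 of 24 cases when set against all autosomes: from 2.49 to 1.59 at Tet2 in iPSC, and at Tet3 from 6.59 to 4.34 at OySyNyK D3, 7.13 to 3.87 at OySyNyK D5 and 5.53 to 2.39 in iPSC. Ranks moved by -1.06 to 0.876 percentage points with shifted windows and by -10.3 to -0.560 when windows without peaks were left out. No paired analysis was possible because each group has 1 library, so no replicates can be paired. The 3 days do pair the methods, and the differences per day are given in the text; an exact two-sided sign-flip test over 3 days cannot go below p = 0.25 and was not run. Depth limits all absences of peaks.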

Other observations

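The windows next to the genes differed in their own course. The window after Tet3 had 3.95% cover in MEF and 1.41% in iPSC. Its cover in the OSNK lists was 5.85%, 5.56% and 0.694%, in the order of the days, and in the OySyNyK lists 5.62%, 4.01% and 3.47%, so that OSNK D5 was the lowest. The window after Tet1 had 0% in MEF and 8.80% in iPSC. The OSNK lists had 2.05%, 3.20% and 0.800% there, and the OySyNyK lists 1.33%, 2.87% and 5.02%. In RefSeq's GRCm38 gene order, Slc25a16 is the next protein-coding gene after Tet1, Cxxc4 after Tet2 and Dguok after Tet3. Which gene these windows hold in the assembly of the lists was not tested.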
